A study of Mus musculus with 6 samples.

Results

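The genes described here are 4 cadherins (Cdh1, Cdh2, Cdh6 and Cdh16), the adhesion molecule Epcam, the intermediate filament gene Vim, and 4 transcription factors of the epithelial-mesenchymal transition (EMT), Snai1, Snai2, Zeb1 and Zeb2. They were picked by gene symbol, with earlier results of these data known, and are 10 of the 46095 genes listed in a table of raw read counts. All 10 passed the filter on low counts, which left 14611 genes for the test. The counts come from primary renal tubular epithelial cells (PTECs) freshly isolated from the kidneys of 10-week-old mice, 1 library per mouse. The 3 libraries labelled VHL-KO (replicates 1, 2 and 4) are from mice with floxed VHL alleles (fl/fl) and Ksp-Cre. The 3 labelled VHL-KO;SETD2-KO (replicates 2, 3 and 4) carry floxed Setd2 (fl/fl) in addition, so that Ksp-Cre and the VHL deletion are shared by both labels. VHL is the subunit of a ubiquitin ligase that targets hypoxia-inducible factors, and SETD2 is the methyltransferase that places H3K36me3 on transcribed gene bodies. Ksp-Cre is Cre recombinase under the promoter of Cdh16, one of the cadherins described here, so deletion is limited to tubular cells in which that promoter has been active, and other cells in the preparation keep intact alleles. The comparison asks how the cadherin and EMT genes differ when SETD2 is lost from VHL-deficient tubular cells.

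Cadherins hold neighbouring cells together through calcium-dependent contacts and are tied to actin by catenins. In EMT, which has been studied in renal fibrosis as a partial change of tubular cells, factors of the Snail and Zeb families bind E-box sequences and repress Cdh1 and other epithelial genes, while Vim and Cdh2 are commonly read as its mesenchymal markers. The kidney differs from most epithelia in that proximal tubule cells normally carry Cdh2 and Cdh6, Cdh1 is found mainly in the later segments, and Cdh16 (kidney-specific cadherin) is present along the tubule. Endothelium, podocytes, fibroblasts and immune cells express Vim, and Zeb1 and Zeb2 are also genes of endothelial and other non-epithelial cells.

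E-boxes of the 2 forms that these factors are known to bind, CACCTG and its reverse complement CAGGTG, were looked for on both strands in the 250 bases before each annotated start in RefSeq's promoter table (GRCm38.p6). Promoters of 5 of the 10 genes were matched (Vim, Zeb2, Snai1, Cdh6 and Epcam). Epcam held 2 boxes, Snai1 held 1, and those of Vim, Cdh6 and Zeb2 had none of these letters in the window. Of all 32851 promoters in the table, 17.22% held at least 1. The Epcam promoter (chr17:87635729-87635978, plus strand) and the Snai1 promoter (chr2:167537945-167538194, plus strand) are shown because they carry the motif of the factors described below, with the boxes in capitals, 5′ to 3′. The boxes begin at -187 and -19 in Epcam and at -126 in Snai1, counted back from the start site with -1 as the base before it.
Epcam: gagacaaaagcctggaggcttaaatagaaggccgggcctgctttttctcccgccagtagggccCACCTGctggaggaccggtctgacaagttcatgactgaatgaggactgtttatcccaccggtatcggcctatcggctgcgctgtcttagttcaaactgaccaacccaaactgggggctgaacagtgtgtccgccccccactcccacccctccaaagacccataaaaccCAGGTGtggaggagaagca
Snai1: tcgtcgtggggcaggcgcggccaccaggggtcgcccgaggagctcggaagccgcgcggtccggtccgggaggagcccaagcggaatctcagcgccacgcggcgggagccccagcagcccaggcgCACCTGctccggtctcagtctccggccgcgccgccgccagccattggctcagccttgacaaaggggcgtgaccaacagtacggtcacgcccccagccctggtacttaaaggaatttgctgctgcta
A match of letters is a description of the sequence. Binding was not measured.

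Totals ranged from 11168552 to 17883466 counts per library, and 3 counts corresponded to 0.159 to 0.281 CPM (the count scaled to the library's size by TMM, edgeR's trimmed mean of M-values), for counting error only. Setd2, the targeted gene that differs between the labels by design, did not separate them. Setd2 counts were 1179, 799 and 132 under VHL-KO and 1499, 1019 and 1429 under VHL-KO;SETD2-KO, with a fitted log2 fold change of 0.52 (SE 0.64, edgeR adjusted p = 0.787), so the genotypes below are given as labels. A count over the whole gene does not show whether the floxed exons are absent. A pair of libraries stood apart. VHL-KO replicate 4 had 11.3% of its counts in the 13 mitochondrial protein genes, against 25.9% to 36.4% in the others, and its values moved with transcript length. The median log2 CPM difference from the mean of the other 5 libraries went from 1.12 for 958 genes under 1 kb to -1.58 for 1926 genes over 6 kb, while the other libraries stayed between -0.31 and 0.47. VHL-KO;SETD2-KO replicate 3 had 11704 Xist counts and 1 count over 4 Y-linked genes, whereas the other libraries had 0 to 4 Xist counts and 260 to 3283 Y-linked counts. The sex of the mice was not in the labels.

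**Figure D1:**
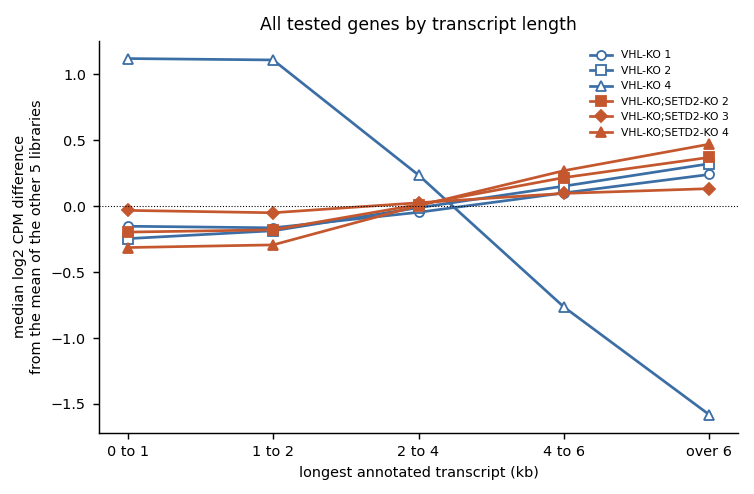
Median log2 CPM difference of each library from the mean of the other 5 (vertical axis) for tested genes in 5 bins of longest annotated transcript in kb (horizontal axis), 1 line per library. VHL-KO replicate 4 descends from 1.12 to -1.58 and the other lines stay between -0.31 and 0.47.

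No cadherin or EMT gene passed the test after adjustment. In edgeR's quasi-likelihood test the smallest adjusted p among the 10 was 0.625, and 0 of the 10 were called at an adjusted p under 0.05 with a fold change of at least 1.5, against 0.00684% of all tested genes. limma-voom also called 0 of the 10, and so did DESeq2, which gave an adjusted p for Cdh16 and Vim alone. With the p left unadjusted, 2 were called higher under VHL-KO;SETD2-KO, Epcam and Snai2, where 2.65% of all tested genes were called higher. None of the 10 was called lower, where 4.68% of all genes were. The same pair were the ones whose groups did not overlap, both higher, against 9.62% of all genes that were separate and higher and 11% that were separate and lower. The fitted log2 fold change was above 0 for 9 of the 10 genes, with a median of 0.60, and for 7374 of the 14611 genes tested, with a median of 0.0093. Since the groups are whole preparations, fewer cells of a type and less RNA per cell cannot be told apart.

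**Figure D2:**
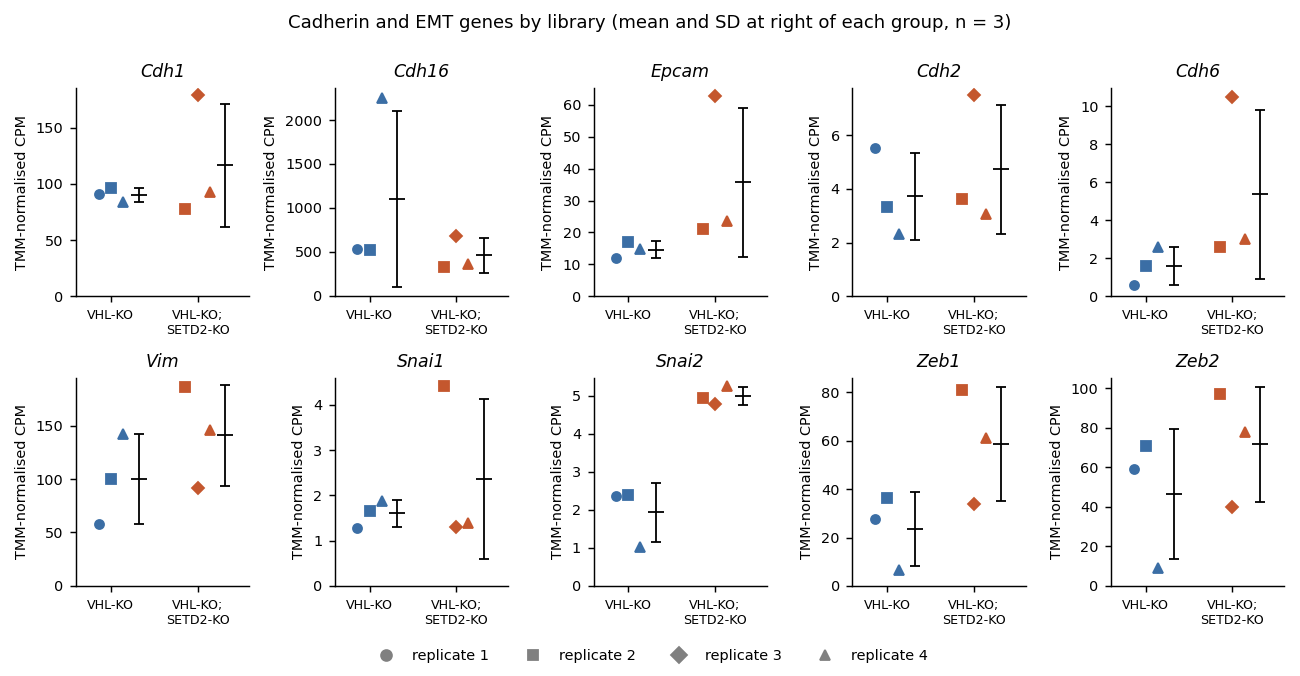
TMM-normalised CPM (vertical axes, linear, from 0) of the 10 genes in each library, grouped by label, with the replicate given by the shape and the group mean and SD beside the points (n = 3). Epcam and Snai2 have separate groups; VHL-KO replicate 4 holds the highest Cdh16 and the lowest Zeb1 and Zeb2, and VHL-KO;SETD2-KO replicate 3 the highest Cdh1, Epcam, Cdh2 and Cdh6.

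Among the epithelial adhesion genes, Epcam stood higher in every VHL-KO;SETD2-KO library. Epcam, on chromosome 17 (GRCm38, 87635979 to 87651129, plus strand), encodes a membrane glycoprotein of epithelial cells that is strongest in the distal nephron and collecting duct of the kidney. Its CPM was 11.9, 17.0 and 15.0 in VHL-KO replicates 1, 2 and 4 and 21.0, 62.7 and 23.5 in VHL-KO;SETD2-KO replicates 2, 3 and 4. All 3 values of the second label lay above all 3 of the first, and replicate 3 lay far above its own group. The means were 14.6 ± 2.59 and 35.8 ± 23.4 (SD, n = 3 each). The log2 fold change was 1.29 (SE 0.52, edgeR adjusted p = 0.625), and the exact permutation test of the group means gave p = 0.1, the smallest that 3 against 3 libraries can give, two-sided. With each library left out in turn, Epcam was still called only without VHL-KO;SETD2-KO replicate 2 or 4. In those fits 1.19% and 1.24% of all genes were called higher. The call was lost without VHL-KO;SETD2-KO replicate 3, at a log2 fold change of 0.62, and without VHL-KO replicate 1, 2 or 4, at 1.17, 1.43 and 1.31. There 2.37%, 1.31%, 2.6% and 8.29% of all genes were called higher. The call was also lost with limma-voom, at 1.12, and with the replicate block, at 0.48, against 2.9% and 0.637% of all genes.

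Cdh1, which encodes E-cadherin, the classical cadherin of epithelial junctions, was between 77.9 and 96.1 CPM in 5 of the 6 libraries. It lies on chromosome 8 (106603351 to 106670246, plus strand). Cdh1 CPM was 90.9, 96.1 and 83.9 under VHL-KO and 77.9, 180 and 92.5 under VHL-KO;SETD2-KO. Replicate 3 of the second label was the high one, and the others of its label lay around the VHL-KO values. The means were 90.3 ± 6.14 and 117 ± 54.9 (SD, n = 3 each), with a log2 fold change of 0.37 (SE 0.44, edgeR adjusted p = 0.783) that turned to -0.075 without that replicate.

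Cdh16, on the minus strand of chromosome 8 (104601911 to 104624396), had the highest CPM of the cadherins described here in every library. In VHL-KO;SETD2-KO replicate 2 the endothelial cadherin Cdh5 was higher, at 427 CPM. Cdh16 CPM was 531, 517 and 2257 under VHL-KO and 332, 684 and 359 under VHL-KO;SETD2-KO. A single library, VHL-KO replicate 4, was over all the others, and without it VHL-KO;SETD2-KO replicate 3 was the highest. The means were 1101 ± 1000 and 458 ± 196 (SD, n = 3 each), with a log2 fold change of -1.27 (SE 0.70, edgeR adjusted p = 0.625). Without VHL-KO replicate 4 the log2 fold change was -0.20 (SE 0.35, edgeR adjusted p = 0.785).

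The tubular cadherins Cdh2 and Cdh6 were low in counts. Cdh2 encodes N-cadherin, and its CPM was 5.52, 3.33 and 2.34 under VHL-KO and 3.61, 7.49 and 3.07 under VHL-KO;SETD2-KO, from 25 to 133 counts per library. The groups overlapped, and the log2 fold change of 0.34 (SE 0.55, edgeR adjusted p = 0.831) turned to -0.16 without VHL-KO;SETD2-KO replicate 3. Cdh6 encodes K-cadherin, which marks the early proximal tubule during nephron formation, and lies on the minus strand of chromosome 15 (13028701 to 13173675). Cdh6 CPM was 0.606, 1.57 and 2.62 under VHL-KO and 2.60, 10.5 and 3.01 under VHL-KO;SETD2-KO, from 10 to 186 counts. The lowest value of the second label was just under the highest of the first, so the groups overlapped by that 1 library. Its log2 fold change was the largest of the 10 in size, 1.76 (SE 0.77, edgeR adjusted p = 0.625, exact permutation p = 0.2). It was 0.84 without VHL-KO;SETD2-KO replicate 3 and 2.33 (SE 0.84, edgeR adjusted p = 0.209) without VHL-KO replicate 4. In the latter fit Cdh6 was called at an unadjusted p, where 8.29% of all genes were called higher.

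Vim, on chromosome 2 (13573927 to 13582826, plus strand), encodes the intermediate filament of mesenchymal cells, which injured tubular cells also make. Vim CPM was 57.8, 99.8 and 142 under VHL-KO and 186, 91.5 and 146 under VHL-KO;SETD2-KO. The ranges overlapped over most of their length, with means of 100 ± 42.3 and 141 ± 47.4 (SD, n = 3 each). The log2 fold change was 0.50 (SE 0.49, edgeR adjusted p = 0.744).

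Of the Snail genes, Snai2 was separate between the labels and Snai1 was not. Snai2, which encodes the zinc finger repressor Slug, lies on chromosome 16 (14705852 to 14709385, plus strand). Snai2 CPM was 2.36, 2.41 and 1.03 under VHL-KO and 4.94, 4.79 and 5.27 under VHL-KO;SETD2-KO, from 11 to 93 counts. The VHL-KO;SETD2-KO libraries were close to each other, replicate 3 included, and all lay above the VHL-KO libraries. The means were 1.93 ± 0.783 and 5.0 ± 0.246 (SD, n = 3 each), with a log2 fold change of 1.36 (SE 0.50, edgeR adjusted p = 0.625) and an exact permutation p = 0.1, again the smallest possible. Without VHL-KO replicate 4 the log2 fold change was 1.06 (SE 0.27, edgeR adjusted p = 0.128), still called at an unadjusted p. In that fit 8.29% of all genes were called higher. The call was lost without VHL-KO;SETD2-KO replicate 2 or 4, at log2 fold changes of 1.38 and 1.33. In those fits 1.19% and 1.24% of all genes were called higher.

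Snai1, which encodes Snail, lies on chromosome 2 (167538195 to 167542814, plus strand) and had the fewest counts of the EMT factors. Snai1 CPM was 1.27, 1.67 and 1.87 under VHL-KO and 4.41, 1.30 and 1.38 under VHL-KO;SETD2-KO. A single library, VHL-KO;SETD2-KO replicate 2 with 83 counts, was above all the others, which had 18 to 23. The log2 fold change of 0.56 (SE 0.63, edgeR adjusted p = 0.769) turned to -0.24 without it.

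The Zeb genes encode zinc finger and homeodomain repressors. Zeb1 CPM was 27.6, 36.4 and 6.64 under VHL-KO and 80.9, 33.8 and 61.3 under VHL-KO;SETD2-KO. Replicates 2 and 4 of the second label were above every VHL-KO library, and replicate 3 was within their range. The log2 fold change was 1.32 (SE 0.65, edgeR adjusted p = 0.625, exact permutation p = 0.2), and 0.87 (SE 0.37, edgeR adjusted p = 0.260) without VHL-KO replicate 4. Zeb2, on the minus strand of chromosome 2 (44983632 to 45117395), had CPM of 59.3, 70.8 and 9.07 under VHL-KO and 97.2, 40.0 and 78.0 under VHL-KO;SETD2-KO. The order of the libraries was that of Zeb1 but for VHL-KO replicate 1 and VHL-KO;SETD2-KO replicate 3. Its log2 fold change was 0.63 (SE 0.72, edgeR adjusted p = 0.773), and 0.14 (SE 0.36) without VHL-KO replicate 4. The longest annotated transcripts of Zeb1 and Zeb2 are 5801 and 9124 bases. The log2 CPM of VHL-KO replicate 4 differed from the mean of the other libraries by -2.71 and -2.85 for these genes. The median differences in that library were -0.76 for genes of 4 to 6 kb and -1.58 for genes over 6 kb. Cdh6, with 8167 bases, differed by 0.091. For Cdh16, with 2923 bases, the difference was 2.27, against a median of 0.24 for genes of 2 to 4 kb. The part of transcript length in these values was not tested.

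Without VHL-KO replicate 4, 2 of the 10 genes were called higher at an unadjusted p, Cdh6 and Snai2, and none lower, while 8.29% of 15000 tested genes were called higher and 7.14% lower. At an adjusted p none of the 10 was called, against 0.00667% of all genes. The median log2 fold change of the 10 was then 0.76, and that of all genes 0.035.

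**Figure D3:**
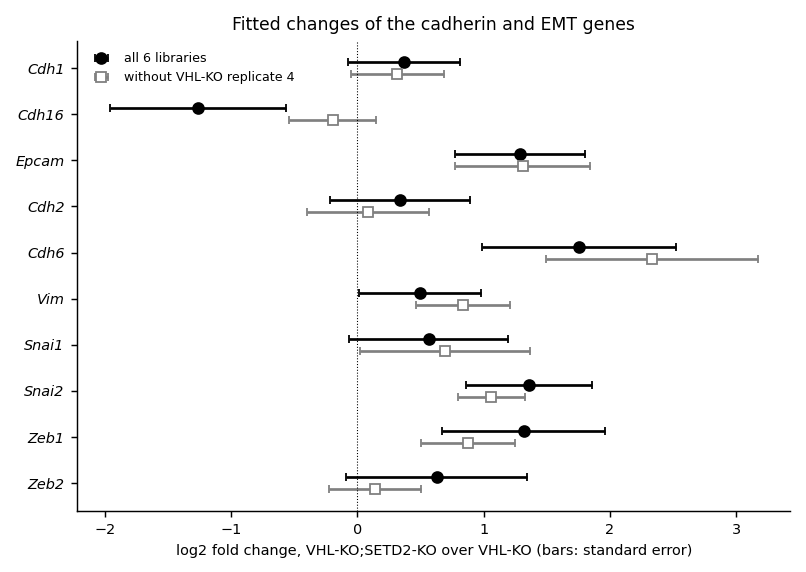
Fitted log2 fold change, VHL-KO;SETD2-KO over VHL-KO, of each gene (horizontal axis) with its standard error, from all 6 libraries (filled) and without VHL-KO replicate 4 (open). Cdh16 moves from -1.27 to -0.20 and Zeb2 from 0.63 to 0.14, while Epcam stays at 1.29 and 1.31.

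Ratios of 2 genes within a library need no scaling between libraries, but they do not remove a trend with transcript length. The longest transcripts are 2923 bases for Cdh16, 2926 for Vim, 4430 for Cdh1 and 4843 for Cdh2. In VHL-KO replicate 4 the median differences were 0.24 for genes of 2 to 4 kb and -0.76 for 4 to 6 kb. The part of transcript length in the ratios was not tested. The ratio of Cdh2 to Cdh1 counts, a common readout of a cadherin switch, was 0.0607, 0.0346 and 0.0279 under VHL-KO and 0.0464, 0.0417 and 0.0332 under VHL-KO;SETD2-KO. The ranges overlapped, and the mean log2 ratios of -4.69 ± 0.579 and -4.64 ± 0.246 (SD, n = 3 each) differed by 0.044. The ratio of Vim to Cdh1 counts was 0.635, 1.04 and 1.70 under VHL-KO and 2.38, 0.509 and 1.57 under VHL-KO;SETD2-KO. Here VHL-KO;SETD2-KO libraries held both the highest and the lowest value, and the difference of the mean log2 ratios was 0.26, with SDs of 0.709 and 1.15. The ratio of Cdh16 to Cdh1 counts was 5.84, 5.37 and 26.9 under VHL-KO and 4.25, 3.81 and 3.88 under VHL-KO;SETD2-KO. All 3 values of the second label lay below the first, close to each other and with replicate 3 among them. The mean log2 ratios were 3.24 ± 1.31 and 1.99 ± 0.0850 (SD, n = 3 each), a difference of -1.25 that became -0.49 without VHL-KO replicate 4. Ratios were chosen with values of these genes known and were not tested.

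**Figure D4:**
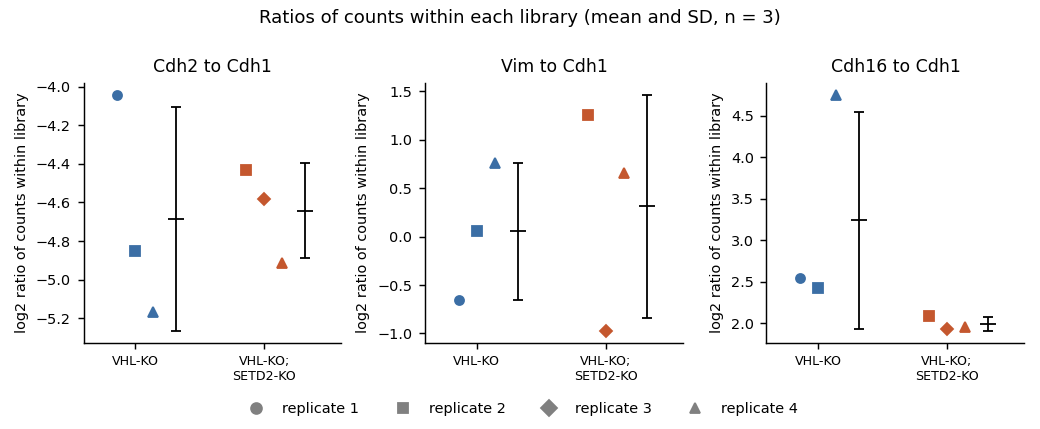
Log2 ratio of counts within each library for Cdh2 to Cdh1, Vim to Cdh1 and Cdh16 to Cdh1 (vertical axes), by label, with group mean and SD (n = 3). The groups overlap in the first 2 panels, and in the third the VHL-KO;SETD2-KO libraries lie together below the VHL-KO libraries.

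Levels were put in order as CPM per kb of the gene's longest annotated transcript. Under VHL-KO the per-kb level was 377 ± 342 for Cdh16, 34.2 ± 14.5 for Vim, 20.4 ± 1.39 for Cdh1 and 7.17 ± 1.27 for Epcam (SD, n = 3). Zeb2 stood at 5.09 ± 3.60 and Zeb1 at 4.06 ± 2.63 per kb, and Snai1, Snai2, Cdh2 and Cdh6 were under 1 at 0.989 ± 0.187, 0.956 ± 0.388, 0.770 ± 0.336 and 0.196 ± 0.123. Under VHL-KO;SETD2-KO the per-kb level of Cdh16 was 157 ± 67.1, that of Cdh6 was 0.657 ± 0.543, and the first 4 places were held in the same order. That order depends on the length used. With the median transcript length the means over all 6 libraries were 33.5 per kb for Zeb2, 32.3 for Cdh1, 30.4 for Zeb1 and 27.9 for Epcam, against 6.47, 23.4, 7.08 and 12.4 with the longest. Taken over all 6 libraries, Cdh16 was above Vim in 6 of 6 with ranges that did not overlap. Every other pair of neighbours in that order (Vim, Cdh1, Epcam, Zeb1, Zeb2, Snai2, Snai1, Cdh2, Cdh6) overlapped in range. Within libraries Cdh1 exceeded Epcam in 6 of 6, Zeb2 exceeded Snai2 in 6 of 6 and Cdh2 exceeded Cdh6 in 6 of 6, while Vim exceeded Cdh1 in 4 of 6 and Zeb1 exceeded Zeb2 in 4 of 6.

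The libraries also differed in the markers of other kidney cells. The summed CPM of 8 proximal tubule markers was 12066 to 24926 under VHL-KO and 5447 to 8002 under VHL-KO;SETD2-KO, and 3 of the 8 were called lower at an unadjusted p (the phosphate transporter Slc34a1, the organic anion transporter Slc22a6 and the water channel Aqp1), against 4.68% of all tested genes. Markers of other cells were present throughout, and none of the markers of any list was at 0 in any library. The sum of 8 endothelial markers was 1654, 1988 and 1266 CPM under VHL-KO and 4603, 1543 and 3765 under VHL-KO;SETD2-KO, and that of 8 podocyte markers was 1539, 2094 and 2187 against 5181, 2108 and 4621. Replicates 2 and 4 of VHL-KO;SETD2-KO, which were highest in both sums, were also the libraries with the highest Zeb1, Zeb2 and Vim. VHL-KO replicate 4 had the lowest endothelial sum, the highest podocyte sum of its label, and the lowest Zeb1 and Zeb2. Its Vim was 142 CPM, close to the 146 CPM of VHL-KO;SETD2-KO replicate 4. None of the 8 endothelial markers and 5 of the 8 podocyte markers were called higher at an unadjusted p, against 2.65% of all tested genes. The sum of 8 stromal markers was 82.6 to 323 CPM under VHL-KO and 77.7 to 224 under VHL-KO;SETD2-KO, and that of 8 immune markers was 159 to 758 and 151 to 343. Of 7 immune markers tested, none was called higher and 2 were called lower at an unadjusted p, against 2.65% and 4.68% of all tested genes. None of 7 stromal markers tested was called. The part of these cells in the levels of Vim, Zeb1, Zeb2 and Snai2 was not tested.

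VHL-KO;SETD2-KO replicate 3, the library with the highest Cdh1, Epcam, Cdh2 and Cdh6, had a different set of markers. Its sum of 6 tubular injury genes was 1604 CPM, against 272 to 708 in the other libraries, and most of it came from Spp1 (osteopontin), at 1200 CPM. The other VHL-KO;SETD2-KO libraries had 231 and 243 CPM of Spp1, and the VHL-KO libraries 199, 195 and 61.7. The groups were separate for Spp1 (log2 fold change 1.88, edgeR adjusted p = 0.625). Of 5 tubular injury genes tested, 1 was called higher and 1 lower at an unadjusted p, against 2.65% and 4.68% of all tested genes. The list did not move as one. Havcr1 (kidney injury molecule KIM-1) was 0.159 to 0.439 CPM under VHL-KO;SETD2-KO, replicate 3 included, from only 3 to 7 counts. Under VHL-KO it was 1.22 to 1.94 CPM, from 13 to 25 counts, with separate groups (log2 fold change -2.22, edgeR adjusted p = 0.625). Lcn2 and Clu were highest in VHL-KO replicate 4, at 7.39 and 637 CPM. The sum of 7 thick limb and distal tubule markers was 4430 CPM in VHL-KO;SETD2-KO replicate 3 and 1607 and 1911 in the rest of its group. VHL-KO replicate 4 had 4825 CPM, mostly Umod and Slc12a3, but was the lowest library for Slc12a1, Kcnj1, Calb1 and Trpm6 (79.2, 19.8, 42.5 and 6.45 CPM), for which VHL-KO;SETD2-KO replicate 3 was the highest (370, 274, 565 and 69.2 CPM). Of the 7 thick limb and distal tubule markers, 2 were called higher and none lower at an unadjusted p, against 2.65% and 4.68% of all tested genes. Collecting duct markers summed to 315 CPM in VHL-KO;SETD2-KO replicate 3 and to 105 and 121 in the others of its label, and to 69.3, 90.8 and 525 under VHL-KO. The part of these cells in the Cdh1, Epcam and Cdh6 levels was not tested.

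**Figure D5:**
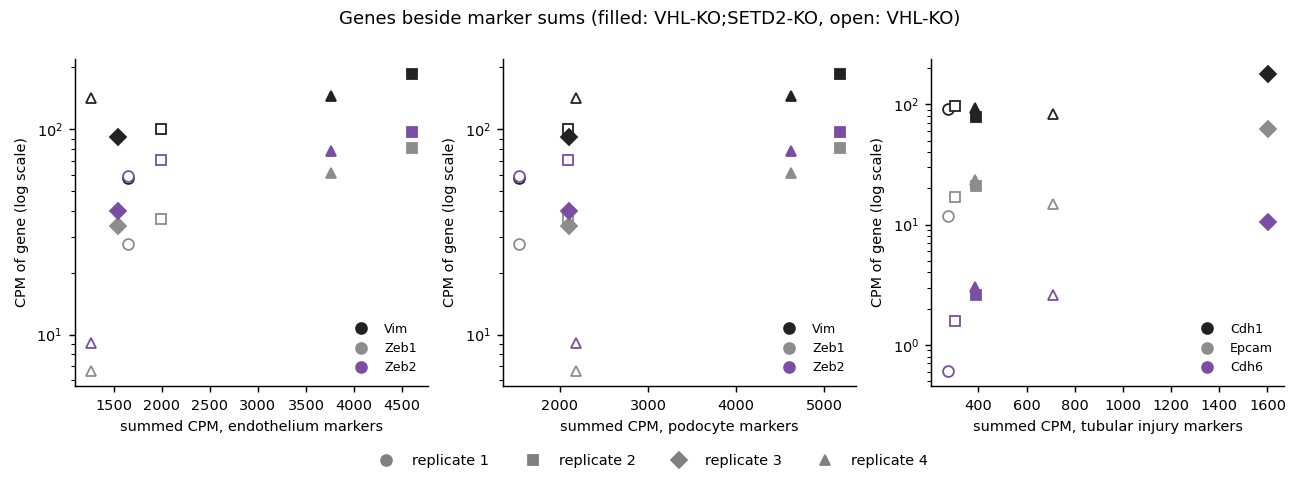
CPM of Vim, Zeb1 and Zeb2 (log axes) against the summed CPM of 8 endothelial and 8 podocyte markers, and CPM of Cdh1, Epcam and Cdh6 against the sum of 6 tubular injury genes, 1 point per library (filled for VHL-KO;SETD2-KO, open for VHL-KO, shape for the replicate). VHL-KO;SETD2-KO replicates 2 and 4 lie at the right in the first 2 panels, and VHL-KO;SETD2-KO replicate 3 at 1604 in the third.

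Catenins, nectins and the vinculin gene Vcl gave a fuller view of the junctions. Of 9 such genes tested, 1 was called higher at an unadjusted p (2.65% of all tested genes were) and none lower. Of the 9, 4 had separate groups, all higher (9.62% of all tested genes), and the median log2 fold change was 0.39. The gene called was Ctnnal1, an alpha-catenin relative, at 16.5, 18.8 and 6.55 CPM under VHL-KO and 38.5, 38.2 and 38.3 under VHL-KO;SETD2-KO (log2 fold change 1.46, SE 0.47, edgeR adjusted p = 0.625). The other separate ones were Ctnna1, Ctnnb1 and Ctnnd1, the alpha-, beta- and p120-catenins that bind the cadherin tail. Mean Ctnnb1 was 296 ± 130 CPM under VHL-KO and 500 ± 25.5 under VHL-KO;SETD2-KO (SD, n = 3 each; edgeR adjusted p = 0.637). In VHL-KO replicate 4 Ctnnb1 was 147 CPM, against 386 and 355 in the rest of that label.

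Epithelial genes were divided. Of 26 listed, 23 were tested, of which 5 were called higher and 3 lower at an unadjusted p, against 2.65% and 4.68% of all tested genes. All 8 had separate groups, as did 9.62% of all tested genes on the higher side and 11% on the lower. The higher ones included Esrp1, a splicing factor of epithelial cells, at 2.55, 3.61 and 2.99 CPM under VHL-KO and 4.73, 16.3 and 5.46 under VHL-KO;SETD2-KO. Grhl2, a transcription factor that sustains Cdh1 expression, was at 1.58, 1.30 and 1.31 and at 2.66, 6.87 and 3.58 CPM. Like Epcam, both were highest in VHL-KO;SETD2-KO replicate 3. Dsp, which encodes desmoplakin of the desmosome, was at 6.67, 9.07 and 7.01 CPM under VHL-KO and 16.8, 29.3 and 19.6 under VHL-KO;SETD2-KO (log2 fold change 1.53, SE 0.40). The desmosomal cadherin Dsg2 and the apical sorting protein Mal2 had log2 fold changes of 1.43 and 1.47. The lower ones were Esrp2, Krt8 and Ovol1. Esrp2, the paralogue of Esrp1, was at 34.6, 37.4 and 48.3 CPM under VHL-KO and 16.6, 20.2 and 21.0 under VHL-KO;SETD2-KO. The keratin Krt8 was at 70.8, 74.5 and 312 against 41.8, 52.4 and 52.0 CPM (log2 fold change -1.64), with VHL-KO replicate 4 far the highest. Ovol1, a repressor of EMT factors, was at 10.5, 12.0 and 28.9 against 4.94, 4.28 and 5.65 CPM. All 8 had an edgeR adjusted p of 0.625. The median log2 fold change of the 23 was -0.30, and without VHL-KO replicate 4 it was 0.88 over 24 genes, with 8 called higher and 2 lower, against 8.29% and 7.14% of all genes in that fit.

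With all 6 libraries, no mesenchymal gene was called at an unadjusted p, against 2.65% of all tested genes higher and 4.68% lower. Of 26 listed, 24 were tested, the median log2 fold change was 0.17, and Tcf4, an E-box-binding helix-loop-helix factor, was alone in having separate groups (mean 34.0 ± 10.9 CPM under VHL-KO and 66.1 ± 13.6 under VHL-KO;SETD2-KO, SD, n = 3 each). Among those with a mean log2 CPM of at least 1, the largest log2 fold changes in size were those of the fibrillar collagens Col1a1 and Col3a1, -2.70 and -1.38 (edgeR adjusted p = 0.625 and 0.651). Below that level, Postn (periostin) had a log2 fold change of 1.56 (edgeR adjusted p = 0.625), at 0.281 to 2.60 CPM. Col1a1 was at 44.9 CPM in VHL-KO replicate 4 and at 0.815 to 5.46 in the other 5 libraries, and the smooth muscle genes Acta2 and Tagln were at 104 and 124 CPM in that replicate against 3.03 to 35.4 elsewhere. Without VHL-KO replicate 4, 8 of 24 were called higher and none lower at an unadjusted p, with a median of 0.74, against 8.29% higher, 7.14% lower and a median of 0.035 over the 15000 genes of that fit.

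The transforming growth factor-beta (TGF-β) pathway is a known inducer of Snai1, Snai2 and Zeb1. Of 12 of its genes none was called at an unadjusted p, against 2.65% of all tested genes higher and 4.68% lower. The log2 fold change was above 0 for 10 of the 12 and for 7374 of the 14611 genes tested, with medians of 0.46 and 0.0093. Without VHL-KO replicate 4, 2 of the 12 were called higher and none lower, against 8.29% and 7.14% of all genes. The median of the 12 was then 0.38. Tgfb2, a ligand, was at 4.79, 3.89 and 0.842 CPM under VHL-KO and 11.5, 4.34 and 9.28 under VHL-KO;SETD2-KO (log2 fold change 1.39, edgeR adjusted p = 0.625). Tgfbr3, the co-receptor betaglycan, was at 35.2, 38.1 and 19.9 against 70.6, 51.4 and 56.5 CPM, with separate groups (log2 fold change 0.94, edgeR adjusted p = 0.625). The inhibitory Smad gene Smad7 and the shared mediator Smad4 also had separate groups, higher under VHL-KO;SETD2-KO, with log2 fold changes of 0.53 and 0.57, so that 3 of the 12 were separate and higher, against 9.62% of all tested genes.

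Among 21 other cadherin genes, 8 passed the filter on low counts (Cdh3, Cdh4, Cdh5, Cdh11, Cdh13, Cdh24, Cdhr2 and Cdhr5), and 1 was called, lower, at an unadjusted p, against 4.68% of all tested genes. This was Cdhr5, a cadherin-related protein of the brush border, at 108, 114 and 384 CPM under VHL-KO and 46.4, 111 and 51.4 under VHL-KO;SETD2-KO (log2 fold change -1.54, edgeR adjusted p = 0.625). As with Cdh16, its highest value was in VHL-KO replicate 4, and the groups overlapped. Without that replicate, 1 of 9 other cadherin genes tested was called higher and none lower, against 8.29% and 7.14% of all genes. The median log2 fold change of the list was -0.075 with all 6 libraries and 0.57 without that replicate. The endothelial cadherin Cdh5 was at 165, 159 and 113 CPM under VHL-KO and 427, 128 and 345 under VHL-KO;SETD2-KO, highest in the same replicates as Zeb1.

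Genes whose pattern over the 6 libraries was most like that of Cdh1, Cdh16 and Vim were found by the root mean square difference of centred log2 CPM among 12715 genes. Nearest to Cdh1 were D630039A03Rik (0.0608), Agpat9 (0.0906) and 2610507I01Rik (0.109). Nearest to Cdh16 were Clpp (0.0679), Coq4 (0.0808) and Marc2 (0.0825). Among those nearest to Vim were Angptl2 (0.0861) and Gata5 (0.0943). Each pattern was set by 6 values, of which a high library carried the most for Cdh1 and Cdh16. Angptl2, for example, was at 53.3, 81.0 and 133 CPM under VHL-KO and 175, 78.5 and 140 under VHL-KO;SETD2-KO, in the order of Vim.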

How the data were processed

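The 10 genes and the lists were chosen with earlier results of these data known. Per the labels and the study's methods, RNA (integrity number above 8.0) from PTECs of 6 mice was made into directional libraries and sequenced with paired ends. The authors deposited raw read counts per gene symbol. The submitters' processing notes name HISAT2 2.0.4 and GRCm38; the counter, the annotation and the use of strand are not given in the sources used here. Every per-sample column was used, which leaves 0 unused.

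From the counts, TMM factors (0.831 to 1.16) and edgeR's quasi-likelihood test (edgeR 4.0.16, R 4.3.3) were computed on the 14611 genes kept by filterByExpr, with the label as the only factor and Benjamini-Hochberg adjustment over all tested genes. Genes were called at p under 0.05, adjusted or not, with a fold change of at least 1.5. Adjusted p-values in the text are from edgeR. Log2 CPM used a prior count of 2. The script was tested on simulated data. P-values set the difference between the labels against the spread between these libraries. Mitochondrial genes were found by their symbols without the mt- prefix. Transcript lengths were from GENCODE M21 (GRCm38), with a length for 94.5% of the tested genes, and promoters from RefSeq. All 10 genes are named, and from each list the genes with an unadjusted p under 0.05, or else the 2 largest log2 fold changes among genes with a mean log2 CPM of at least 1. Xist, the Y-linked genes, Angptl2, Cdh5, Ctnna1, Ctnnb1, Ctnnd1, Tcf4, Smad4, Smad7, Acta2, Tagln, Postn, Lcn2, Clu, Umod, Slc12a1, Slc12a3, Kcnj1, Calb1, Trpm6, Spp1 and Havcr1 were named after their values were seen. One gene near Vim in pattern is not reported here. Alternatives were DESeq2's (1.42.0) size factors and Wald test, limma-voom (3.58.1), other filters, no mitochondrial genes, a replicate block, each library left out in turn, and median transcript length.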

Additional observations from a re-analysis of the deposited data

How the results depend on the processing

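Over 130 alternative fits of the 10 genes in 13 settings, 126 kept the direction and 4 reversed it. None had an adjusted p under 0.05 where one was given, the lowest being 0.128 for Snai2 without VHL-KO replicate 4. DESeq2's own filter left an adjusted p only for Cdh16 and Vim. Cdh1 reversed to -0.081 with the replicate block. With each library left out in turn the log2 fold change ran from -0.075 to 0.60 for Cdh1, from -0.16 to 0.75 for Cdh2 and from -0.24 to 0.87 for Snai1. Genes of the 10 called higher at an unadjusted p numbered 2 in the reported fit, against 2.65% of all tested genes. DESeq2 called 4 higher (Cdh6, Epcam, Snai2 and Zeb1), against 1.77%, and the fit with no filter on low counts 4, against 2.5%. limma-voom called 1, against 2.9%, and the replicate block 0, against 0.637%. With a library left out 1 to 2 were called higher, against 1.19% to 8.29% of all genes. DESeq2 called 1 lower, Cdh16, where 1123 of 25375 genes were called lower. Over all genes, 1 was called at an adjusted p, against 51 with DESeq2, 2 with no filter, 0 with at least 10 counts in every library, 0 to 1 with a library left out, and 1071 with the p unadjusted; 2 of the 10 genes were called with the p unadjusted and 0 with it adjusted. limma-voom moved the median log2 fold change of all genes by 0.133, and no other setting moved it by more than 0.073. Replicate numbers 2 and 4 occur under both labels, and no pairing is stated in the sources used here. Deviations of same-numbered libraries from their group means correlated at 0.165 and -0.319. With so few libraries per group and VHL-KO replicate 4 set apart, these values cannot decide whether the libraries were paired. The libraries were taken to share only a number, and the block left 93 genes called higher and 54 lower at an unadjusted p. The log2 ratio differences with a library left out ran from -0.20 to 0.37 for Cdh2 to Cdh1, from -0.21 to 0.90 for Vim to Cdh1 and from -1.66 to -0.49 for Cdh16 to Cdh1. Median in place of longest transcript length moved the per-kb level of Cdh1, Cdh16, Epcam, Vim, Zeb1 and Zeb2 by more than its SD between libraries, and Zeb2 then stood above Cdh1 and both Zeb genes above Epcam. Depth limits Cdh6, Snai1, Snai2 and Cdh2, with as few as 10 counts in a library.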
